A study of Caenorhabditis elegans with 45 samples.

Results

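The expression of 10 genes of the meiotic chromosome axis and of synapsis was followed in adult *C. elegans* between 41 and 257 h after feeding. They were taken by name and make up 10 of the 25985 genes in the deposited table: *htp-3*, *him-3*, *htp-1* and *htp-2*, which encode the HORMA domain proteins of the axis, *rec-8*, which encodes a meiotic cohesin subunit, *syp-1*, *syp-2*, *syp-3* and *syp-4*, which encode proteins of the central region of the synaptonemal complex, and *spo-11*, which encodes the enzyme that cuts DNA at the start of recombination. RNA came from whole animals of a pair of strains that are sterile at 25°C, GEM incompletely so. FEM animals carry *fem-3(q20)* IV, a gain-of-function allele that masculinizes the germ line, so that a normal somatic gonad makes excess sperm and no oocytes. GEM animals carry *gon-2(q388); gem-1(bc364)*, in which the gonad precursors mostly fail to divide. Failure of the gonad is incomplete in GEM: visibly fertile animals were picked off before harvest, and a degenerate gonad could be seen in part of the animals at 117 h. The paper describes gonad formation in GEM as delayed. By day 4, it states, the gonad might hold sperm and oocytes and, in few animals, embryos, and some animals could have progeny. Both strains were raised at 25°C on HT115 bacteria with the empty vector L4440. The 45 libraries (23 FEM and 22 GEM) make 18 groups of 2 or 3 libraries, and days are days of adulthood, while hours are counted from the feeding of arrested larvae: day 1 was sampled at 41 and 49 h, day 2 at 65 and 73 h, day 3 at 89 and 97 h, and days 4, 5 and 10 at 117, 137 and 257 h. No wild-type group is among the samples analysed here, and each library is a pool of animals.

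In meiotic prophase each pair of sister chromatids is held together by cohesin and folded into loops along a protein axis. The HORMA proteins build this axis on cohesin, homologous chromosomes pair and become joined along their length by the SYP proteins, and breaks made by SPO-11 are repaired as crossovers. In the adult gonad these proteins act in germ cells that have left the mitotic zone, in the making of sperm as well as of oocytes, and the genes are known mainly for their part in the germ line.

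Levels are given as normalised counts, the authors' read counts divided by a size factor for each library, and differences on the scale of log2(normalised count + 1). The file holds natural logarithms rounded to 2 decimals, so a high count is known only to within a small fraction of its value. Estimated depth was 12807347 to 43351632 reads assigned to genes per library, with a median of 21339681, and 16670 to 20163 genes were detected. The study calls the libraries of a group biological replicates, and the p-values measure the spread between them. For each gene this spread was taken as equal in all 18 groups. All differences were tested with limma in 1 model over 16925 genes, those whose deposited value averaged 1 or more, with p-values adjusted over all of them by the Benjamini-Hochberg method and a threshold of 0.05. All 10 genes passed this filter.

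The 10 genes changed little in FEM animals and climbed from very low to high levels in GEM animals. Their mean log2 level was 9.09 ± 0.09 (SD, n = 3) in FEM at 41 h and 9.86 ± 0.27 (n = 2) at 257 h, and it lay between 9.52 and 9.93 at the 7 ages between. In GEM the mean was 4.36 ± 0.62 (n = 3) at 41 h, 7.37 ± 0.67 (n = 3) at 65 h, 10.17 ± 0.67 (n = 3) at 89 h and 11.55 ± 0.12 (n = 2) at 257 h. On this scale the strains crossed on day 3. In bulk RNA of whole animals, fewer germ cells and less RNA per germ cell cannot be told apart, and this holds for every difference below.

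**Figure D1:**
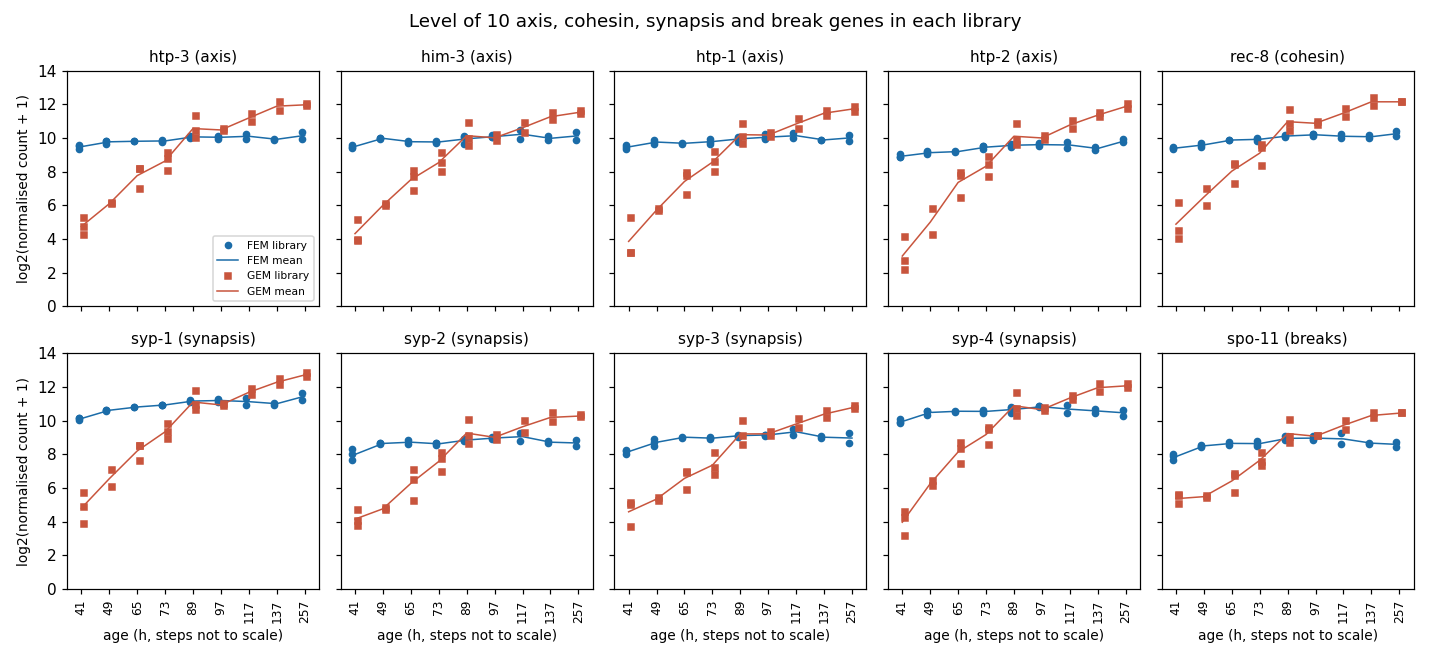
Level of each of the 10 genes as log2(normalised count + 1) (vertical axis) at each age in hours (horizontal axis, steps not to scale), with 1 point per library and lines through the group means, FEM in blue circles and GEM in red squares. In every panel the FEM points stay within a narrow band while the GEM points start below them at 41 h, reach them at 89 h and lie above them at 137 and 257 h.

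At 41, 49, 65 and 73 h all FEM libraries exceeded all GEM libraries in each of the 10 genes. Among all genes tested the same held for 44.7%, 48.1%, 48.2% and 33.9% at these ages. At 89 h the strains overlapped for 9 of the 10, and *rec-8* was lower in every FEM library, as were 26.4% of genes tested. At 97 h FEM was above GEM in all libraries for 2 genes, *syp-1* and *syp-4* (28.0% of genes tested), and below for 3, *htp-2*, *htp-3* and *rec-8* (35.2%). At 117 h FEM was below GEM for 8 genes (43.0% of genes tested), with overlap for *him-3* and *syp-2*, and at 137 and 257 h for all 10 (48.6% and 47.9%).

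Among the axis genes, HTP-3 is the HORMA protein on which the others depend for loading. *htp-3* (WBGene00002034, chromosome I, 4827072 to 4829791, plus strand, WBCel235) had normalised counts of 36.7, 25.6 and 18.1 in the 3 GEM libraries at 41 h, 66.4 and 68.4 at 49 h, 289, 124 and 283 at 65 h and 432, 555 and 259 at 73 h. It then stood at 1365, 1021 and 2489 at 89 h, 1509 and 1352 at 97 h, 2778 and 1977 at 117 h, 4582 and 3164 at 137 h and 3827 and 4229 at 257 h. Libraries of 41, 49 and 65 h did not overlap, and those of later neighbouring ages partly did, with library 3 of 89 h above both libraries of 97 h and the libraries of 257 h between those of 137 h. In FEM the counts were 658, 756 and 741 at 41 h, 879, 933 and 915 at 73 h, 1001 and 1211 at 117 h and 1312 and 991 at 257 h, and library 1 of 257 h was the highest FEM library. The ratio of the mean at 257 h to that at 41 h was 150 in GEM and 1.60 in FEM.

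HIM-3 lies along the axis and is needed for synapsis between homologues. *him-3* (WBGene00001862, chromosome IV, 6977508 to 6978765, plus strand) had normalised counts in GEM of 34.2, 13.9 and 14.2 at 41 h, 65.7 and 60.6 at 49 h, 991, 749 and 1938 at 89 h and 2806 and 3071 at 257 h. In FEM the counts were 691, 719.5 and 764 at 41 h, 1032, 1032 and 972 at 49 h, 1107, 811 and 1085 at 89 h and 1325 and 952 at 257 h. The GEM libraries were thus far below the FEM libraries on day 1, on both sides of them at 89 h and above them on day 10. Its exons overlap those of *prkl-1* by 24 bases, and reads were counted without regard to strand.

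HTP-1 and HTP-2 are close paralogues, of which HTP-1 oversees pairing and synapsis and both take part in the stepwise release of cohesion; reads from stretches that they share may have been split between them. *htp-1* (WBGene00002032, chromosome IV, 5390189 to 5391557, minus strand) had 36.7, 8.12 and 7.85 at 41 h, 49.4 and 54.1 at 49 h, 239, 95.5 and 216 at 65 h, 1085, 811 and 1844 at 89 h and 3040.2 and 3751 at 257 h in GEM. In FEM *htp-1* stood at 651, 705 and 779.6 at 41 h and 1163 and 924 at 257 h. *htp-2* (WBGene00002033, chromosome IV, 6419522 to 6420898, plus strand) had 16.1, 3.48 and 5.49 at 41 h, 17.7 and 53.6 at 49 h, 241, 86.4 and 209.6 at 65 h, 933, 779.6 and 1844 at 89 h and 3428 and 4104 at 257 h in GEM. The FEM counts of *htp-2* were 463, 463 and 533 at 41 h and 991 and 853 at 257 h. Library 1 of GEM at 41 h held more of both than the other 2, and the GEM values at 41 h rest on an estimated 7 to 41 reads for *htp-1* and 3 to 18 for *htp-2*. The ratio of 257 h to 41 h means in GEM was 193 for *htp-1* and 450 for *htp-2*, the latter the highest of the 10 genes.

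REC-8 is the kleisin subunit that closes the meiotic cohesin ring and is lost stepwise in the divisions. *rec-8* (WBGene00004333, chromosome IV, 13349122 to 13353193, minus strand) had 70.5, 15.1 and 21.2 at 41 h, 62.4 and 127 at 49 h, 333, 150.4 and 353 at 65 h and 684, 756 and 319.5 at 73 h in GEM. From day 3 the GEM counts were 1825, 1393 and 3196 at 89 h, 1997 and 1771 at 97 h, 3394 and 2415 at 117 h, 5377 and 3865 at 137 h and 4536 and 4582 at 257 h. The FEM libraries held 658, 705 and 671 at 41 h, 719.5, 819.6 and 779.6 at 49 h, 943 and 943 at 65 h, 1001, 1021 and 897 at 73 h, 1107, 1074 and 1163 at 89 h, 1211, 1096 and 1211 at 97 h, 1011 and 1199 at 117 h, 1011 and 1152 at 137 h and 1365 and 1129 at 257 h. GEM was thus below FEM on days 1 and 2, with library 3 of 73 h and library 2 of 65 h low among their group. From 89 h on all GEM libraries exceeded all FEM libraries of the same age, earlier than for any other of the 10 genes.

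The SYP proteins form the transverse filaments and the central element of the synaptonemal complex, and each needs the others to load. *syp-1* (WBGene00006375, chromosome V, 16404274 to 16407701, plus strand) had the highest median count of the 10, not scaled to length, in FEM and in GEM from 89 h on. In FEM it held 1063, 1140.4 and 1152 at 41 h, 1619, 1587 and 1509 at 49 h, 1789 and 1807 at 65 h, 1938, 1958 and 1977 at 73 h, 2321, 2207 and 2367 at 89 h, 2464, 2185 and 2415 at 97 h, 1938 and 2591 at 117 h, 1977 and 2142 at 137 h and 3261 and 2415 at 257 h. All FEM libraries from 49 h on lay above those of 41 h, and the first of the libraries at 257 h was the highest FEM value. In GEM it went from 50.9, 27.8 and 13.3 at 41 h through 651, 879 and 472 at 73 h and 2058 and 1862 at 97 h to 6247 and 7258 at 257 h. Its exons overlap those of *F13A7.14* by 517 bases, and the level of that gene went from 5.73 at 41 h to 11.29 at 257 h in GEM on the log2 scale, and its part in the *syp-1* counts was not tested.

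*syp-4* (WBGene00019247, chromosome I, 6847511 to 6849923, plus strand) had 22.3, 17.4 and 7.85 at 41 h, 68.4 and 82.9 at 49 h, 1685, 1235 and 3261 at 89 h and 3983 and 4628 at 257 h in GEM. In FEM *syp-4* had 962, 1074 and 933 at 41 h, 1509, 1494 and 1312 at 49 h, 1736, 1407 and 1771 at 89 h and 1603 and 1235 at 257 h. Its FEM mean was 62.5 times its GEM mean at 41 h, the highest such ratio of the 10 genes. *syp-2* (WBGene00006376, chromosome V, 5536487 to 5537717, plus strand), with the lowest median count of the 10 in GEM from 89 h on, had 24.3, 15.1 and 12.6 at 41 h, 24.8 and 27.5 at 49 h, 555, 391 and 1063 at 89 h and 1175 and 1299 at 257 h in GEM. Its FEM counts were 199, 256 and 319.5 at 41 h, 406, 411 and 383 at 49 h, 477, 445 and 458 at 89 h and 468 and 353 at 257 h. *syp-3* (WBGene00006377, chromosome I, 8663045 to 8664445, minus strand) shares 61 exon bases with *mrt-1*, a telomere replication gene. It had 30.5, 11.6 and 33.8 at 41 h, 37.1 and 41.9 at 49 h, 538, 379 and 1011 at 89 h and 1635 and 1862 at 257 h in GEM. In FEM *syp-3* had 261, 295 and 301 at 41 h, 427, 482 and 357 at 49 h, 555, 527 and 577 at 89 h and 607 and 411 at 257 h. For *syp-2* and *syp-3* the GEM libraries of 49 h lay just above the highest of 41 h, and for *syp-4* well above it. Means at 257 h were 272 times those at 41 h in GEM for *syp-4*, 220 for *syp-1*, 71.4 for *syp-2* and 69.1 for *syp-3*, and 1.43 to 2.54 times in FEM.

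SPO-11 makes the programmed double-strand breaks from which crossovers arise. *spo-11* (WBGene00004985, chromosome IV, 11123133 to 11124862, minus strand) held 31.5, 44.2 and 46.5 in GEM at 41 h, 41.9 and 45.5 at 49 h, 103, 51.5 and 113 at 65 h, 184, 272 and 157 at 73 h, 512, 411 and 1032 at 89 h, 544 and 533 at 97 h, 1011 and 705 at 117 h, 1421 and 1129 at 137 h and 1379 and 1407 at 257 h. In FEM it held 236, 261 and 201 at 41 h, 375, 360.4 and 349.7 at 49 h, 364, 436 and 394 at 73 h, 383 and 607 at 117 h and 427 and 343 at 257 h. The GEM libraries of 41 and 49 h overlapped, unlike those of most of the other genes, and library 1, the highest of the 41 h libraries for 8 of the other genes, was the lowest for *spo-11*. The *spo-11* exons overlap those of *enpl-1*, a chaperone gene of the endoplasmic reticulum, by 23 bases, and *enpl-1* stood at a log2 level of 13.78 in GEM at 41 h. Its part in the *spo-11* counts at that age was not tested.

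At 41 h all 10 genes were higher in FEM than in GEM, by a median of 4.97 on the log2 scale, while 39.2% of all genes tested were called higher in FEM and the median over all genes was 0.34. The difference was 5.99 (SE 0.30, adjusted p = 7.08e-18) for *syp-4*, 5.94 (SE 0.38, adjusted p = 2.54e-15) for *htp-2* and 5.62 (SE 0.36, adjusted p = 3.25e-15) for *htp-1*. It was 4.75 (SE 0.28) for *htp-3*, 5.18 (SE 0.30) for *him-3*, 4.53 (SE 0.36) for *rec-8* and 5.33 (SE 0.30) for *syp-1*. *spo-11* had the smallest difference, 2.50 (SE 0.26, adjusted p = 4.29e-10), followed by *syp-3* with 3.58 (SE 0.32) and *syp-2* with 3.85 (SE 0.33). Since a count of 1 is added before the logarithm, these values understate the change of genes with counts near 0, such as *htp-2* in GEM. At 49 h all 10 were again higher in FEM, from 3.02 for *spo-11* to 4.23 for *syp-4* (median 3.93), against 43.2% of all genes. On day 2 all 10 were higher, from 1.34 for *rec-8* to 2.11 for *syp-1* (median 1.74), against 41.0% of all genes, and *rec-8* lost its call when libraries were centred on their medians (0.49, adjusted p = 0.0635). At 41 h the share of higher values among all calls was 74.8%, but 41.3% after quantile normalization and 34.8% after centring, under which the median of the 10 genes was 4.39 and 4.22.

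On day 3 a single gene passed the test, *rec-8*, lower in FEM with a difference of -0.77 (SE 0.27, adjusted p = 0.0175), where 30.3% of all genes were called lower in FEM. The call was lost without library 3 of GEM at 89 h (-0.60, adjusted p = 0.0701) and without library 1 of GEM at 97 h. Without library 1 or 3 of GEM at 41 h, library 2 at 65 h, library 2 or 3 at 73 h or library 2 at 89 h, *htp-3* was called as well. The remaining 9 genes ranged from -0.47 (adjusted p = 0.0578) for *htp-3* to 0.16 (adjusted p = 0.580) for *syp-1*. When each library was centred on its median, 9 of the 10 genes were called lower in FEM on day 3 and *syp-1* stood at -0.34, so the age of the crossing depends on the scaling. The share of all genes called lower with centring is not given, so this count is not set against other genes.

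From day 4 on the order of the strains was turned round. Over days 4 and 5 all 10 genes were lower in FEM, from -0.83 (SE 0.26, adjusted p = 0.00640) for *him-3* to -1.73 (SE 0.31, adjusted p = 1.29e-05) for *rec-8* (median -1.09), against 39.8% of all genes and a median of -0.27 over all genes. On day 10 all 10 were lower in FEM, from -1.26 (SE 0.37, adjusted p = 0.00376) for *syp-1* to -2.03 (SE 0.46, adjusted p = 2.81e-04) for *htp-2* (median -1.75), against 40.4% of all genes and a median of -0.34. The *syp-1* call on day 10 was lost without library 2 of FEM at 257 h (adjusted p = 0.0516), and after quantile normalization those of *htp-1*, *him-3* and *syp-1* on day 10 and of *him-3* on days 4-5 were lost. With quantile normalization the day 10 values shrank from -1.70 to -0.79 for *htp-1*, from -1.38 to -0.44 for *him-3* and from -1.26 to -0.46 for *syp-1*, and that of *him-3* on days 4-5 from -0.83 to -0.32. As a ratio of mean normalised counts, GEM was 2.38 to 4.08 times FEM at 257 h, while FEM was 5.73 to 62.5 times GEM at 41 h. Averaged over the 9 ages all 10 genes were higher in FEM, from 0.38 (SE 0.13, adjusted p = 0.0129) for *rec-8* to 1.20 (SE 0.11, adjusted p = 2.54e-11) for *syp-1* (median 0.80, 31.1% of all genes). That mean hides the crossing, and with libraries centred on their medians it turned to -0.23 for *rec-8* and -0.16 for *spo-11*, and 4 genes were still called. The share of higher values among all calls in that mean was 44.6%, 26.4% after quantile normalization and 18.4% after centring.

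**Figure D2:**
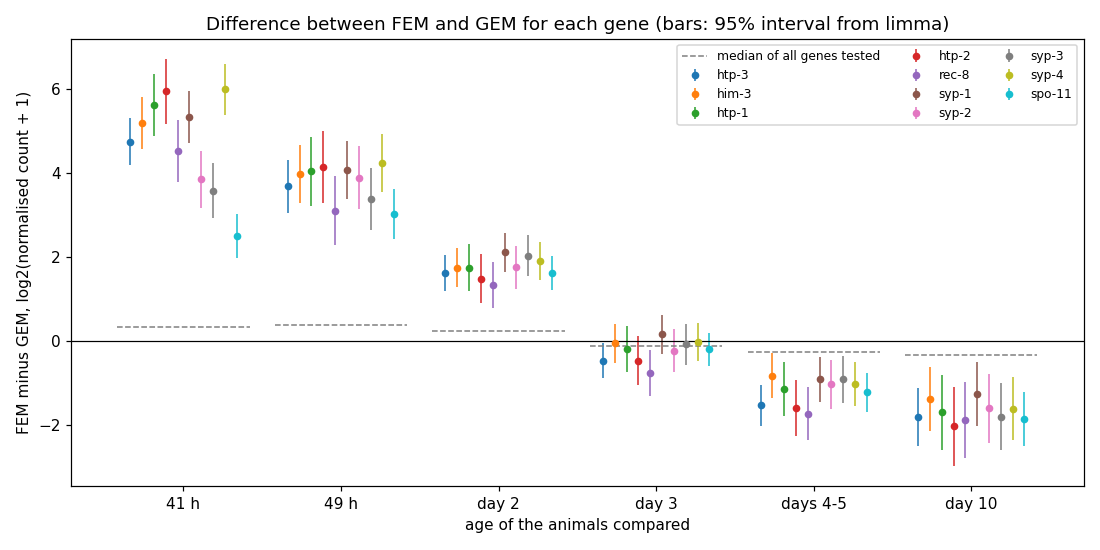
FEM minus GEM on the log2(normalised count + 1) scale (vertical axis) for each of the 10 genes at 6 stages (horizontal axis), with bars for the 95% interval from limma and a dashed line at the median of all genes tested. All points lie above 0 at 41 h, 49 h and day 2, around 0 on day 3 and below 0 on days 4-5 and day 10, and *spo-11* is lowest at 41 h with 2.50.

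Within GEM the rise was spread over the whole course up to day 5. Between 41 and 49 h 7 genes rose, where 11.9% of all genes were called rising: *syp-4* by 2.29 (SE 0.33, adjusted p = 7.01e-06), *htp-2* by 2.01 (SE 0.42), *htp-1* by 1.86 (SE 0.40), *syp-1* by 1.76 (SE 0.34), *him-3* by 1.68 (SE 0.34), *rec-8* by 1.61 (SE 0.40) and *htp-3* by 1.35 (SE 0.31). The values of *syp-3*, *syp-2* and *spo-11* were 0.76 (adjusted p = 0.143), 0.62 (adjusted p = 0.262) and 0.12 (adjusted p = 0.834). Without library 2 of GEM at 49 h 5 genes were called, *htp-2* and *rec-8* being lost, and in a fit to the GEM libraries of these ages alone none was. From 49 h to day 2 all 10 rose, by 1.55 (*spo-11*) to 2.84 (*htp-2*), against 30.7% of all genes. From day 2 to day 3 all 10 rose within a narrow range, from 2.04 (*him-3*) to 2.36 (*rec-8*), against 38.7% of all genes.

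From day 3 to days 4-5 all 10 genes rose in GEM by 0.78 (*syp-2*) to 1.02 (*htp-3*), with adjusted p of 0.0241 at most, where 31.6% of all genes were called rising. Without library 1 of GEM at 117 h or without library 1 at 137 h 4 genes were called, without library 2 at 89 h or library 2 at 97 h 8, after quantile normalization 2 (*htp-3* and *syp-1*), and in a fit to these GEM groups alone none. From days 4-5 to day 10 no gene was called in GEM (median 0.50, and 1 gene at an unadjusted p under 0.05), where 20.6% of all genes were called. The whole change from day 1 to day 10 was 7.88 (SE 0.39, adjusted p = 5.35e-18) for *htp-2*, 7.05 (SE 0.31) for *syp-1*, 6.96 (SE 0.31) for *syp-4* and 6.93 (SE 0.37) for *htp-1*. It was 6.56 (SE 0.28) for *htp-3*, 6.47 (SE 0.37) for *rec-8*, 6.36 (SE 0.31) for *him-3*, 5.82 (SE 0.34) for *syp-2*, 5.81 (SE 0.33) for *syp-3* and 5.02 (SE 0.27) for *spo-11*. All 10 passed the test, as did 55.1% of all genes in this direction, whose median over all genes was 1.03.

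Within FEM few steps could be told from 0 for these genes in the model over all groups. That model takes 1 spread per gene from both strains. The SD of the mean deviation of the 10 genes was 0.10 in FEM and 0.41 in GEM, so its SE tend to be wide for FEM steps. No gene was called between 41 and 49 h, with a median of 0.49 and 1 gene, *spo-11* at 0.64 (adjusted p = 0.0525), under an unadjusted p of 0.05, where 35.8% of all genes were called. Its call appeared when 1 of 9 libraries of other groups was left out, libraries 1 and 2 of FEM at 117 h and, in GEM, library 1 at 41 h, 2 and 3 at 65 h, 2 and 3 at 73 h and 2 and 3 at 89 h. In a fit to the FEM libraries of these ages alone 8 of the 10 were called for that step. The shares of all genes given here are from the model over all groups. Those in fits to the groups compared alone are not given, so the counts from such fits are not set against other genes. None was called from 49 h to day 2, from day 2 to day 3, from day 3 to days 4-5 or from days 4-5 to day 10, with medians of 0.10, 0.25, -0.05 and 0.02 and 0 genes at an unadjusted p under 0.05 in each. The shares of all genes called in these steps were 18.1%, 4.91%, 2.75% and 24.7%. In fits to the groups compared alone the first of these steps gave 3 calls and the next 7. From day 1 to day 10 *syp-1* rose by 1.08 (SE 0.30, adjusted p = 0.00350), where 28.9% of all genes were called rising, and the other 9 had values from 0.24 (adjusted p = 0.514) for *syp-4* to 0.82 (adjusted p = 0.0693) for *htp-2*. Without library 1 of FEM at 257 h the *syp-1* value was 0.87 (adjusted p = 0.102) and no gene was called. Without library 1 of GEM at 41 h 3 genes were called, and 2 without library 2 at 41 h, library 1 or 2 at 49 h or library 2 at 65 h. In a fit to the FEM groups compared alone 8 were called.

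The change from day 1 to day 10 differed between the strains for all 10 genes. FEM minus GEM in this change was -7.06 (SE 0.54, adjusted p = 1.70e-12) for *htp-2* and -4.62 (SE 0.37, adjusted p = 4.41e-12) for *spo-11*, the ends of the range, with a median of -5.97. Among all genes tested 47.9% were called in this direction, and the median was -0.84. For the change from days 4-5 to day 10 no gene differed between the strains (median -0.56, 0 genes at an unadjusted p under 0.05), where 14.5% of all genes did.

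Between the strains at 41 h and on day 10, and over time in GEM, the 10 genes moved with other germ line transcripts. All 12 general germ line markers, such as *glh-1* and *pgl-1* of the P granules, were higher in FEM at 41 h (median 4.17, against 39.2% of all genes) and lower on day 10 (median -1.79, against 40.4%). Their summed normalised count was 3215 to 5490.1 in GEM at 41 h and 123831 to 136077 at 257 h, against 33397 to 35883 and 30636 to 38956 in FEM. The mean of the 10 genes was below the mean of these markers by 1.92 ± 0.03 (SD, n = 3) in FEM at 41 h and 1.25 ± 0.03 (n = 2) at 257 h, and by 2.85 ± 0.19 (n = 3) and 1.45 ± 0.04 (n = 2) in GEM, on the log2 scale. Of 9 markers of the mitotic germ line and of DNA replication, 7 were higher in FEM at 41 h and 9 lower on day 10, beside the same 39.2% and 40.4%. Within FEM from day 1 to day 10 the 12 general markers had a median of -0.22 with 0 called. The 10 genes had a median of 0.46 with 1 called, where 28.9% of all genes were called rising.

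Markers of the gametes parted between the strains. Of all genes tested 39.2% were called higher and 13.2% lower in FEM at 41 h, and 40.4% lower on day 10. The 9 sperm markers, such as *spe-11* and *gsp-4*, were all higher in FEM at 41 h, with a summed count of 4304 to 5191 against 43.9 to 77.5 in GEM, where *peel-1* was at 0. On day 10 FEM minus GEM ran from 0.11 (*spe-44*) to 4.52 (*spe-10*) over the 9, with 0.794 as the largest adjusted p. Their median was 4.10, where the median over all genes was -0.34. The sum of the 9 in GEM had by then reached 1695 to 1886. Of 13 oocyte and eggshell markers, all were higher in FEM at 41 h and 11 were lower in FEM on day 10, the exceptions being *perm-2* and *perm-4*, which encode proteins of the outer eggshell. The mean log2 level of the 13 ran from 3.66 to 14.17 over the GEM libraries and from 8.39 to 10.77 over those of FEM, whose animals make no oocytes. Their summed count, in which genes of high count weigh most, had a higher group median in FEM at each age. At 89 h, however, the highest GEM library (345447) exceeded the lowest FEM library (332361). On day 10 the median difference of the 13 was -5.05, so the higher sum in FEM there rests on *perm-2* and *perm-4*. The summed count was 15998 to 22114 in FEM and 275 to 1615 in GEM at 41 h. At 257 h it was 458435 to 461698 in FEM and 261790 to 361727 in GEM. The 8 embryo markers, 4 of which passed the filter, summed to 1.80 to 7.06 in GEM at 41 h, 66.0 to 266 at 89 h and 168 to 173 at 257 h, and to 6.31 to 55.4 over all FEM libraries. Of 9 markers of muscle, intestine and neurons, 3 were lower in FEM at 41 h and 4 on day 10, with medians of -0.09 and -0.50. The count on day 10 is near the share of all genes. The 5 somatic gonad markers, such as *lim-7* of the sheath, summed to 2464 to 2657 in FEM and 499 to 675 in GEM at 41 h. Of these, 4 were higher in FEM at 41 h, with a median over the 5 of 1.91. On day 10 the 5 ran from 0.51 (*ceh-18*) to 2.30 (*inx-8*), with a median of 2.24 and adjusted p of 0.0548 at most. No germ line marker was at 0 in all libraries of a GEM group. With quantile normalization or centring the medians of the germ line, oocyte and sperm lists kept their directions at both ages. The median of the somatic list on day 10 turned to 0.16 with quantile normalization. The part of gonad growth, gamete type and embryos in the values of the 10 genes was not tested.

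**Figure D3:**
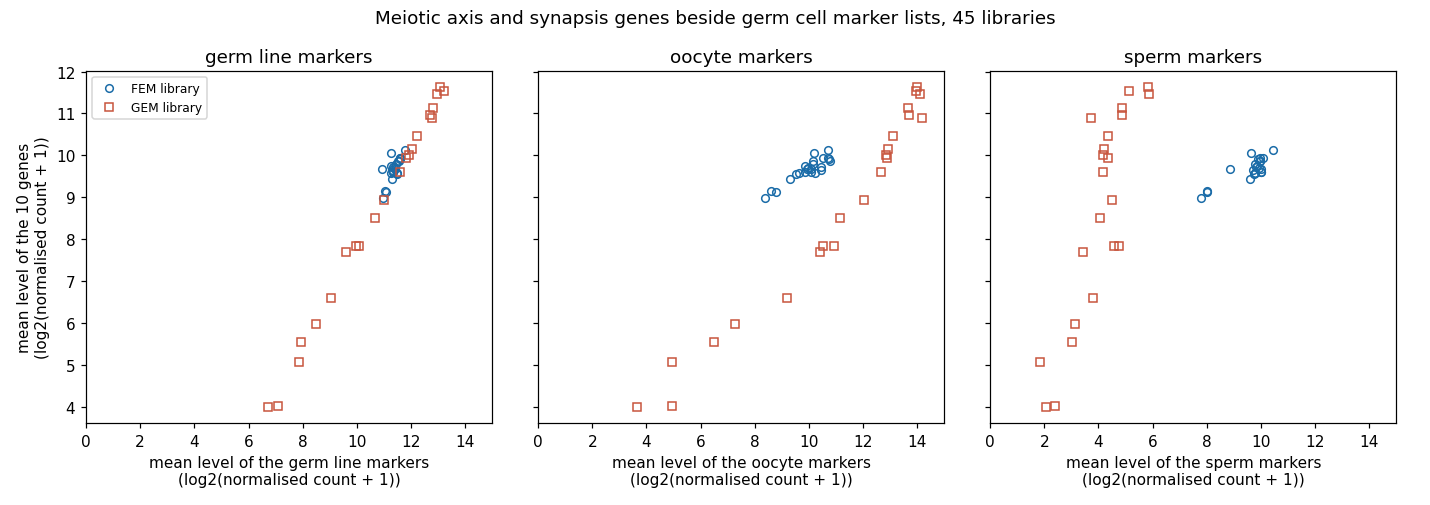
Mean log2(normalised count + 1) of the 10 genes (vertical axis) against the mean of 12 germ line markers, 13 oocyte markers and 9 sperm markers (horizontal axes of the 3 panels), with 1 point for each of the 45 libraries, FEM as blue circles and GEM as red squares. The strains lie along 1 band against the germ line markers, and apart from each other against the oocyte and sperm markers.

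Libraries of the same age differed together in these genes. In GEM all 10 genes were above their group means in the first and last of the 65 h libraries and all 10 below in library 2, and at 89 h all 10 were above in library 3 and below in the other 2. The mean deviation of the 10 genes was 0.73 in library 3 of GEM at 89 h and -0.77 in library 2 of GEM at 65 h, the extremes over all libraries. Its SD was 0.41 over the 22 GEM libraries and 0.10 over the 23 FEM libraries. The model, which takes 1 spread per gene over all groups, makes no allowance for this difference between the strains. As a description, the median correlation between pairs of the 10 genes in these deviations was 0.82 in GEM and 0.71 in FEM, and the mean deviation went with that of the germ line markers at r = 0.97 and 0.95. For the oocyte markers r was 0.86 in GEM and 0.47 in FEM, and for the sperm markers -0.07 and 0.94. The points share library, depth and size factor.

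Per kb of exon the order of the genes was similar in the strains. In the 23 FEM libraries the median was 831 normalised counts per kb for *him-3*, 759.6 for *htp-1*, 731 for *syp-4*, 648 for *syp-1*, 570.1 for *htp-2*, 565 for *syp-3*, 410.3 for *rec-8*, 407 for *htp-3*, 376 for *syp-2* and 276 for *spo-11*. Neighbours in this order were not always apart: *htp-1* was above *syp-4* in 14 of 23 libraries, *htp-2* above *syp-3* in 14 and *rec-8* above *htp-3* in 10. *spo-11* was below *syp-2* in 23 of 23. In the 11 GEM libraries from 89 h on the medians were 1658 for *him-3*, 1500.1 for *htp-1*, 1490.4 for *htp-2*, 1387 for *syp-4*, 1297 for *rec-8*, 1134 for *syp-1*, 1083 for *syp-3*, 1063 for *htp-3*, 889.8 for *syp-2* and 707 for *spo-11*. Within these libraries, however, *htp-1* was above *him-3* in 10 of 11, so their medians mislead on that pair, and *syp-3* and *htp-3* changed places in 6. *syp-2* and *spo-11* came last in both strains, and at 257 h *htp-2* had the highest mean in GEM, 3044 per kb, against 745 and the fourth place in FEM, below *him-3*, *syp-1* and *htp-1*. Without dividing by length *spo-11* came last in FEM.

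**Figure D4:**
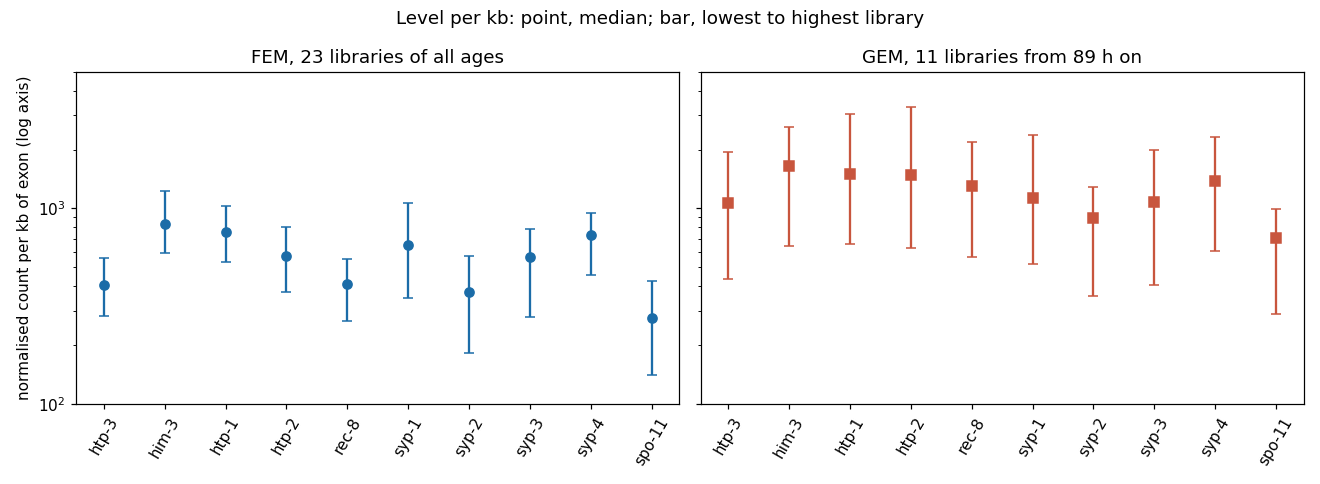
Normalised count per kb of exon (vertical log axis) for the 10 genes in the 23 FEM libraries of all ages (left) and the 11 GEM libraries from 89 h on (right), with points for medians and bars from the lowest to the highest library. *him-3* has the highest median in both panels (831 and 1658) and *spo-11* the lowest (276 and 707).

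Differences taken within a library, which do not depend on its size factor except through the added count of 1, showed where the genes departed from each other. *htp-1* was above *htp-2* by 0.55 ± 0.06 (SD, n = 3) in FEM at 41 h, 0.33 ± 0.09 (n = 3) at 73 h, 0.38 ± 0.20 (n = 3) at 89 h, 0.51 ± 0.11 (n = 2) at 137 h and 0.17 ± 0.08 (n = 2) at 257 h. The lowest FEM library of 89 h, at 0.16, lay within the range of those of 257 h. In GEM the difference was 0.87 ± 0.37 (n = 3) at 41 h, 0.06 ± 0.08 (n = 3) at 65 h, 0.12 ± 0.04 (n = 2) at 137 h and -0.15 ± 0.03 (n = 2) at 257 h, where *htp-2* was above *htp-1* in both libraries. The mean of the 4 *syp* genes minus that of the 4 axis genes rose in FEM from -0.29 ± 0.05 at 41 h (n = 3) to 0.16 ± 0.09 at 65 h (n = 2) and was -0.15 ± 0.06 at 257 h (n = 2). In GEM it fell from 0.40 ± 0.32 at 41 h (n = 3) to -0.22 ± 0.05 at 65 h (n = 3) and -0.32 ± 0.01 at 257 h (n = 2). The FEM and GEM libraries did not overlap at any of the 9 ages, with GEM above FEM at 41 and 49 h and below from 65 h on. These differences were not tested. *spo-11* was below the mean of the other 9 genes by 1.36 ± 0.25 in FEM at 41 h (n = 3), but above it by 1.11 ± 1.02 in GEM at 41 h (n = 3), where library 1 alone was at -0.06. From 65 h on *spo-11* lay below the others by 0.87 to 1.23 on average in GEM and by 0.99 to 1.41 in FEM.

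**Figure D5:**
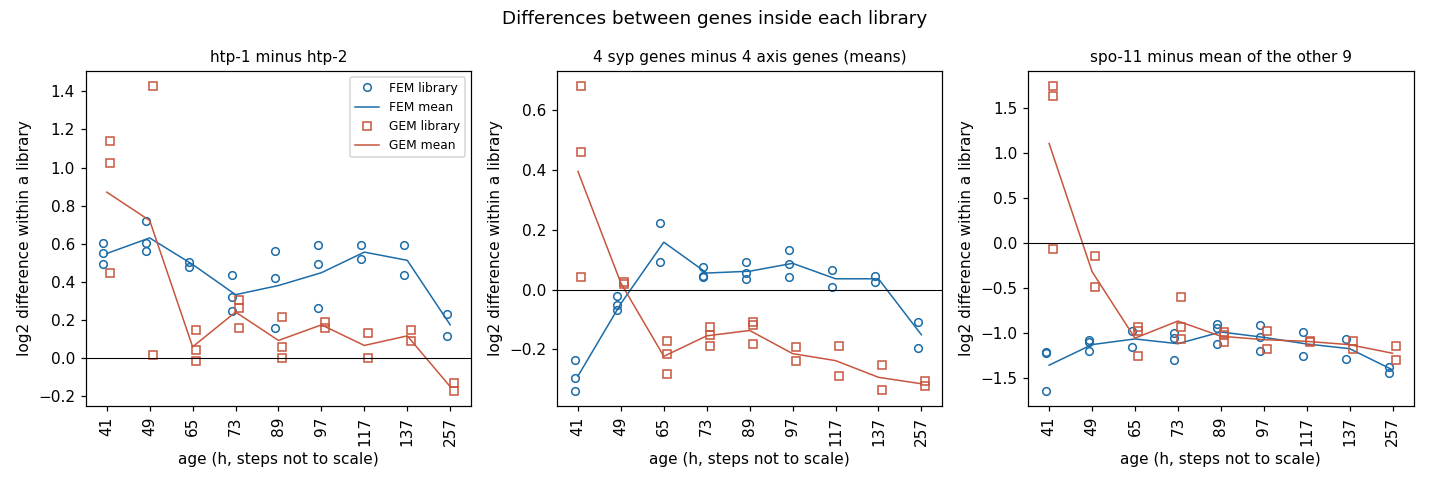
Difference on the log2(normalised count + 1) scale inside each library (vertical axes) by age in hours (horizontal axes, steps not to scale) for *htp-1* minus *htp-2*, the mean of the 4 *syp* genes minus that of the 4 axis genes, and *spo-11* minus the mean of the other 9, with points for libraries and lines for group means. The GEM points of 41 h are spread widely in all 3 panels, and *htp-1* minus *htp-2* ends at 0.17 in FEM and -0.15 in GEM.

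The wider meiotic machinery was followed with 58 further genes in 6 lists, and most of its calls at the ends of the time course had the directions of the 10 genes. At 41 h 55 of the 58 were higher in FEM and 1, *rip-1*, lower (median 2.27), against 39.2% and 13.2% of all genes. On day 10 56 were lower (median -1.81), against 40.4% of all genes. Between day 1 and day 10 all 58 rose in GEM (median 5.22, 55.1% of all genes) and 24 rose in FEM (median 0.52, 28.9% of all genes). Day 3 had 3 calls higher in FEM and 22 lower, where 23.0% and 30.3% of all genes were called. With quantile normalization and with centring 50 and 47 were higher in FEM at 41 h and 43 and 58 lower on day 10. The shares of all genes called under these scalings are not given, so list counts under them, here and below, are not set against other genes. The mean over the 9 ages was less stable for these genes than the ends of the course: 35 were higher in FEM and 9 lower, 29 and 17 after quantile normalization, and 9 and 29 with libraries centred on their medians, with medians of 0.42, 0.21 and -0.19. On the deposited scale 31.1% of all genes tested were called higher and 38.6% lower in this mean. The counts by list and the differences that follow are this mean on the deposited scale. The lists hold genes that other cells use as well, such as *skr-1*, a subunit of ubiquitin ligases, at 12.21 in FEM and 12.28 in GEM at 41 h on the log2 scale. *skr-1* and *fkb-6*, a cochaperone, had the highest levels in the list of other synapsis genes, of which 3 were called higher and 3 lower in FEM over the 9 ages. Its central region genes *syp-5* and *syp-6*, chosen after their values were seen, were higher in FEM by 0.62 (SE 0.12, adjusted p = 3.26e-05) and 0.99 (SE 0.11, adjusted p = 4.26e-10), or 0.01 and 0.38 with centring. In GEM they went from 4.73 and 4.55 at 41 h to 11.72 and 11.60 at 257 h. *pch-2* and *cmt-1*, an ATPase and its partner that act on HORMA proteins, also chosen after their values were seen, were lower in FEM over the 9 ages under each scaling, with differences of -0.58 (SE 0.13, adjusted p = 1.38e-04) and -1.27 (SE 0.11, adjusted p = 3.45e-12). In this list 7 of the 8 genes, both of these included, were higher in FEM at 41 h, and all 8 were lower on day 10.

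Among 10 cohesin genes 6 were higher and 2 lower in FEM over the 9 ages, beside 31.1% and 38.6% of all genes. *him-1*, the SMC1 subunit, and *scc-3* had the highest levels, with values of -0.11 (adjusted p = 0.238) and 0.26 (adjusted p = 0.00868). *coh-1*, a kleisin, and *wapl-1*, which releases cohesin, were lower in FEM under each scaling, with differences of -0.54 (SE 0.10, adjusted p = 2.65e-05) and -0.72 (SE 0.09, adjusted p = 7.52e-09). At 41 h *wapl-1* was nevertheless higher in FEM (9.28 against 8.40 in GEM), and at 257 h lower (9.59 against 12.12). With centring *scc-3* turned to -0.36 and 2 genes of this list were higher and 6 lower. The meiotic kleisin gene *coh-3* was below *rec-8* by 1.01 ± 0.07 (SD, n = 3) at 41 h, 0.93 ± 0.05 (n = 2) at 65 h and 0.43 ± 0.11 (n = 2) at 257 h in FEM, and by 0.56 ± 0.66 (n = 3), 1.19 ± 0.13 (n = 3) and 0.71 ± 0.20 (n = 2) at these ages in GEM. *coh-4*, a close paralogue with which *coh-3* may share reads, was below *rec-8* by 1.16 ± 0.06, 1.32 ± 0.01 and 1.35 ± 0.09 in FEM and by 1.26 ± 0.78, 2.18 ± 0.08 and 1.80 ± 0.07 in GEM. These levels are per gene, not per length. Of 10 pairing genes 8 were higher in FEM and 1 lower, *him-8*, the zinc finger protein of the X chromosome pairing centre, with a difference of -0.53 (SE 0.11, adjusted p = 6.88e-05). Like the 10 genes, *him-8* was higher in FEM at 41 h (7.10 against 4.95 in GEM) and lower at 257 h (7.50 against 9.91). *zyg-12* of the nuclear envelope and the kinase gene *plk-2* had the highest levels, with 0.98 (SE 0.08, adjusted p = 1.17e-12) and 1.11 (SE 0.10, adjusted p = 1.77e-11), and both stayed above 0 with centring (0.37 and 0.50).

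Of 10 genes for break formation and resection 4 were higher and 2 lower in FEM, which is near the 31.1% of all genes called higher, with 38.6% called lower. *rad-50* and *him-17*, those with the highest levels, had 0.73 (SE 0.09, adjusted p = 5.97e-09) and -0.40 (SE 0.08, adjusted p = 2.56e-05), and *xnd-1*, a chromatin factor, had -0.24 (SE 0.11, adjusted p = 0.0463). At 41 h *him-17* and *xnd-1* were higher in FEM, at 9.44 and 9.42 against 8.30 and 5.94 in GEM. At 257 h they were lower, at 10.13 and 10.05 against 12.18 and 12.88. Of 7 strand exchange genes 4 were higher and 1 lower. The recombinase gene *rad-51* and *brc-2*, the BRCA2 homologue, were at 0.45 (SE 0.10, adjusted p = 2.92e-04) and 0.78 (SE 0.09, adjusted p = 2.18e-09), and *rip-1*, which encodes a RAD-51 paralogue, was at -1.24 (SE 0.16, adjusted p = 2.25e-08) and, unlike the 10 genes, also lower in FEM at 41 h, with a difference of -1.01 (SE 0.42, adjusted p = 0.0442). Of 13 crossover genes 10 were higher and 0 lower, and the nuclease genes *xpf-1* and *mus-81*, with the highest levels, were at 0.09 (adjusted p = 0.337) and 0.13 (adjusted p = 0.144). With centring *rad-51* turned to -0.16, *xpf-1* to -0.52 and *mus-81* to -0.48, and *rad-50* and *brc-2* stood at 0.11 and 0.17.

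Profiles over the 18 group means were compared by Pearson's r with the mean profile of the 10 genes. Each of the 10 followed the mean of the other 9 at r = 0.976 (*spo-11*) to 0.998 (*htp-1*). Among all genes tested, the 10 included, 96 (0.567%) had r above 0.99, 3.40% above 0.95 and 8.29% above 0.9. Against the mean of the other 9, *rec-8* (0.988) and *spo-11* lay below 0.99. The 8 highest outside the lists were *hmg-3*, a subunit of the FACT histone chaperone, at 0.999, *cec-9* at 0.999, *ogr-2* at 0.997, *set-32*, a histone methyltransferase gene, at 0.997, *C30G12.6* at 0.997, *C48B4.8* at 0.997, *iff-1*, a translation factor eIF5A gene, at 0.997, and *rga-3* at 0.997. Over these 8 genes the change from 41 to 257 h was 5.81 (*iff-1*) to 8.42 (*rga-3*) in GEM and 0.31 (*C48B4.8*) to 1.24 (*ogr-2*) in FEM on the log2 scale. None of the 8 was among the highest 8 when Spearman's rho, FEM groups alone or GEM groups alone were used, so the ranking among so many similar profiles depends on the measure.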

How the data were processed

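Whole-worm poly(A) RNA-seq of 45 libraries was analysed. Per the study's methods and processing notes, the authors trimmed single-end reads (Trim Galore 0.4.4), aligned them to WBCel235 (HISAT2 2.1.0), counted exon reads per gene with isoforms merged and without strand (SeqMonk), and normalised with DESeq2. The deposited values are natural logs of normalised count + 1, the base and the added 1 being read from the values, with 2 decimals. They were converted to log2. Because the 2 decimals do not give whole reads for high counts, no count test was run. Depth was estimated from the steps between low values and limits the precision of values near 0, as in GEM at 41 h.

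The 18 groups come from strain and age in the labels, and libraries were numbered in accession order. The test was limma 3.58.1 (R 4.3.3) with 1 mean per group, empirical Bayes with a trend, 21 contrasts of group means and Benjamini-Hochberg adjustment over 16925 genes with a threshold of 0.05. It was checked on simulated data for the mean strain difference over the 9 ages only. These data had the same spread in both strains and no change with age. The check does not cover the other contrasts or a spread that differs between the strains. Where a contrast spans several groups, their means weigh equally. Alternatives were no filter, a minimum mean deposited value of 3, quantile normalization, centring on library medians, a pseudocount of 8, no trend, a fit to the groups compared and leaving out each library. The list counts under both scalings were added after seeing the data. Further genes named were, per list, those with the highest levels and those called against the direction of the list, and the 8 genes with profiles most like the mean of the 10. *coh-3*, *coh-4*, *syp-5*, *syp-6*, *pch-2* and *cmt-1* were named outside this rule. Exon lengths and overlaps are from Ensembl release 115, in which 25381 names matched, and 11 names that spreadsheets had turned into dates were not used. The 10 genes and all lists were chosen with earlier results of these data known.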

Additional observations from a re-analysis of the deposited data

Results flagged for a closer look

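The change from day 1 to day 10 differed between FEM and GEM for each of the 10 genes in limma's test of the difference itself, which is what marked them. FEM minus GEM in this change was -7.06 (SE 0.54) for *htp-2*, -6.72 (SE 0.43) for *syp-4*, -6.53 (SE 0.52) for *htp-1*, -6.03 (SE 0.40) for *htp-3* and -5.97 (SE 0.44) for *him-3* on the log2 scale. For the others it was -5.96 (SE 0.44) for *syp-1*, -5.69 (SE 0.52) for *rec-8*, -5.47 (SE 0.47) for *syp-2*, -5.28 (SE 0.46) for *syp-3* and -4.62 (SE 0.37) for *spo-11*. The share of all genes tested called in this direction was 47.9%. No group holds 4 libraries, so single libraries were not screened as outliers.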

How the results depend on the processing

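Of 1460 values of the 210 pairs of gene and comparison under the alternative settings, 1368 kept direction and call, 45 gained a call, 34 lost one and 13 changed sign. Of 9450 values with 1 library left out, 9376 kept both, 21 gained a call, 22 lost one and 31 changed sign. Scaling moved the median of all genes by over 0.1 in most comparisons between strains: at 41 h from 0.34 to -0.24 (quantile) and -0.41 (centred), over all ages from -0.08 to -0.43 and -0.69, and for GEM from day 1 to day 10 from 1.03 to 0.03 and 0.36. The share of higher values among calls moved, for example, from 74.8% to 34.8% at 41 h, from 71.5% to 24.4% on day 2, and from 71.7% to 51.7% for GEM from day 1 to day 10. The causes were not tested.

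Counts of the 10 genes called changed as follows. The shares of all genes called under these settings are not given, so the counts are not set against other genes. With centred libraries 4 were called over all ages, 9 on day 3 and 1 for GEM from days 4-5 to day 10. With quantile normalization 2 were called on day 3, 1 for FEM from 41 to 49 h, 1 for FEM from days 4-5 to day 10, 3 for FEM from day 1 to day 10 and 2 for GEM from day 3 to days 4-5. A pseudocount of 8 gave 2 on day 3, 1 for FEM from 41 to 49 h and 3 for FEM from day 1 to day 10, and a minimum mean of 3 gave 1 for FEM from 41 to 49 h. Fits to the groups compared estimate the spread from those libraries only. They gave 8, 3 and 7 for the first 3 steps in FEM and 8 for FEM from day 1 to day 10. In GEM they gave 0, 0 and 1 from 41 to 49 h, from day 3 to days 4-5 and from days 4-5 to day 10. The model over all groups takes 1 spread per gene for both strains. The SD of the mean deviation of the 10 genes was 0.10 in FEM and 0.41 in GEM. The SE of that model thus tend to be wide for steps within FEM and narrow for steps within GEM. With 1 library left out the count ranged from 0 to 2 on day 3, from 0 to 1 for FEM from 41 to 49 h, from 0 to 3 for FEM from day 1 to day 10 and from 4 to 10 for GEM from day 3 to days 4-5.

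Signs changed with centring for *rec-8* (-0.23) and *spo-11* (-0.16) over all ages, *syp-1* on day 3 (-0.34), *htp-2* (-0.0048) and *rec-8* (-0.024) in FEM from 41 to 49 h, *syp-2* in FEM from 49 h to day 2 (-0.0012) and from day 3 to days 4-5 (0.0048). With quantile normalization they changed for *htp-2* (-0.091) and *rec-8* (-0.11) in FEM from 41 to 49 h, *syp-2* in FEM from day 3 to days 4-5 (0.0031), and *htp-3* (0.15), *rec-8* (0.33) and *syp-1* (0.080) in the strain difference of the change from days 4-5 to day 10. With 1 library left out, day 3 values ranged from -0.20 to 0.14 (*him-3*), -0.24 to 0.11 (*syp-3*) and -0.17 to 0.18 (*syp-4*), and *spo-11* in GEM from 41 to 49 h ranged from -0.050 to 0.22. In FEM from 49 h to day 2 they ranged from -0.085 to 0.037 (*htp-1*), -0.012 to 0.082 (*htp-3*) and -0.029 to 0.079 (*syp-2*), and from day 3 to days 4-5 from -0.069 to 0.090 (*htp-1*), -0.11 to 0.026 (*htp-3*), -0.046 to 0.21 (*him-3*), -0.14 to 0.097 (*syp-2*) and -0.043 to 0.14 (*syp-3*). In FEM from days 4-5 to day 10 they ranged from -0.16 to 0.17 (*htp-1*), -0.061 to 0.34 (*htp-3*), -0.21 to 0.27 (*him-3*), -0.49 to 0.069 (*syp-3*) and -0.36 to 0.018 (*syp-4*).

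Groups left with 1 library by an omission were assumed to vary like the others. No paired analysis was possible because no replicate number in the labels is shared across groups. The titles give each library its own serial number, and some of these follow each other across the strains at an age, but no source says what they mark and they were not used as pairs. Depth limits the values of GEM at 41 h, where *htp-2* rests on an estimated 3 to 18 reads.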
